A study of Homo sapiens with 24 samples.

Results

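The 10 receptor genes described here were followed across the whole series. They were EGFR, ERBB2 and ERBB3 of the epidermal growth factor receptor family, MET and MST1R of the hepatocyte growth factor receptor family, the insulin-like growth factor receptor IGF1R, the insulin receptor INSR, the GAS6 receptor AXL, the ephrin receptor EPHA2 and the fibroblast growth factor receptor FGFR1. They were found by name among the non-control spots of the scanner files, where 17 probes carried these 10 names, among 18453 named coding genes on the first of the array designs and 18526 on the second. Every member had at least 1 probe on all 24 arrays, and a gene was read from its brightest probe.

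Receptor tyrosine kinases are single-pass membrane proteins that pair when a ligand binds outside the cell and then phosphorylate tyrosines on each other's tails. Adaptor proteins dock on those tails and pass the signal to the RAS-MAPK and PI3K-AKT pathways, and ubiquitin ligases and phosphatases such as the CBL proteins end it. These receptors are amplified, mutated or highly expressed in many carcinomas, and AXL and MET are known as receptors that can take over when EGFR is blocked. What was measured here was messenger RNA, not receptor protein or its phosphorylation.

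The series compared treated with control cells of established human cancer lines on 2-colour arrays, with treated RNA in the Cy5 channel and control RNA in the Cy3 channel of every array and no dye swap. PC3 and DU145 (prostate cancer) were treated with genistein, a soy isoflavone, at 25 µM for 4 days per the study's methods, against cells that the labels call untreated. A498 and 786O (renal cell carcinoma) received si-CAV2, and FaDu and SAS (head and neck squamous cell carcinoma) received si-LAMB3, each against a control siRNA. DU145 and PC3 received si-GOLM1 against a control siRNA. SAS and FaDu were treated with the flavone wogonin against DMSO. The microRNA transfections, each against a control microRNA, were miR-145 in PC3, DU145 and the prostate line LNCap, miR-375 in FaDu, miR-23b, miR-24 and miR-27b in PC3, miR-29a in SAS, miR-143 in DU145 and PC3, and miR-27b in 786O and A498. In 786O, cells were also harvested 12 h and 24 h after the chemokine CXCL10, against cells without it. Each line and treatment had 1 array, so a treatment could be tested only across lines.

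The microRNAs are shown because the receptor values below are compared between them. Mature sequences are from RefSeq, with the seed, bases 2 to 8, in capitals, and coordinates are GRCh38. The labels name no arm, and the arm shown is the one usually meant by the bare name. The 7 microRNAs carried 7 different seeds, although those of miR-23b and miR-27b are closely alike.
miR-23b-3p: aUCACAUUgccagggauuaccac
miR-27b-3p: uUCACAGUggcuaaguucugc
miR-24-3p: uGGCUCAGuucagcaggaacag
miR-143-3p: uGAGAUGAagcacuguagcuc
miR-145-5p: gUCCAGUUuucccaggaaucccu
miR-29a-3p: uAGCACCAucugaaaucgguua
miR-375-3p: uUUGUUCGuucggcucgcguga

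miR-23b, miR-27b and a copy of miR-24 lie together on the plus strand of chromosome 9, at chr9:95085265-95085287, chr9:95085505-95085525 and chr9:95086064-95086085. miR-143 and miR-145 lie together on the plus strand of chromosome 5, at chr5:149428978-149428998 and chr5:149430661-149430683.

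On each array 53.2% to 67.6% of spots were well above background in the Cy3 channel and 54.2% to 68.9% in the Cy5 channel, and no member spot was saturated. Array number, not read depth, limits the precision. The siRNA targets were low on their own arrays, with log2 ratios of -3.80 and -3.20 for CAV2, -3.02 in DU145 and -4.15 in PC3 for GOLM1, and -2.50 in FaDu for LAMB3. In SAS, LAMB3 was at -0.89, inside the range of the 22 arrays without that siRNA, which ran from -2.11 to 4.21. Marker genes went with the labels of the lines in part. All 6 prostate markers were above background in LNCap, but 2 in PC3 and 4 in DU145, all 6 squamous markers in FaDu and 5 in SAS, and 5 of 6 renal markers in A498 and 4 in 786O on the first design. In lines of another origin, 3 prostate markers were above background in A498 and 3 in 786O, 3 squamous markers in DU145 and 3 renal markers in FaDu. The prostate markers thus did not set PC3 and DU145 apart from the renal lines.

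Of the 240 values, 10 receptors on 24 arrays, 233 had at least 1 channel above background. Each value is a log2 ratio of treated over control, so -1 is a fall by a factor of 2. Past that size, 15 values (6.44%) were lower and 19 (8.15%) higher, where the shares of all coding genes were 3.88% and 4.66%. On the first design 15 were lower and 17 higher among 158 values, against 5.3% and 6.5% of all genes, and on the second design 0 were lower and 2 higher among 75, against 1.05% and 0.987%. The arrays with the widest spread over all genes were PC3 miR-24, with 13% of genes lower and 15.2% higher, and FaDu miR-375, with 13.4% and 10.5%. AXL supplied 9 of the 19 higher values and none of the lower ones. EGFR moved past a factor of 2 on both genistein arrays and on no other.

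**Figure D1:**
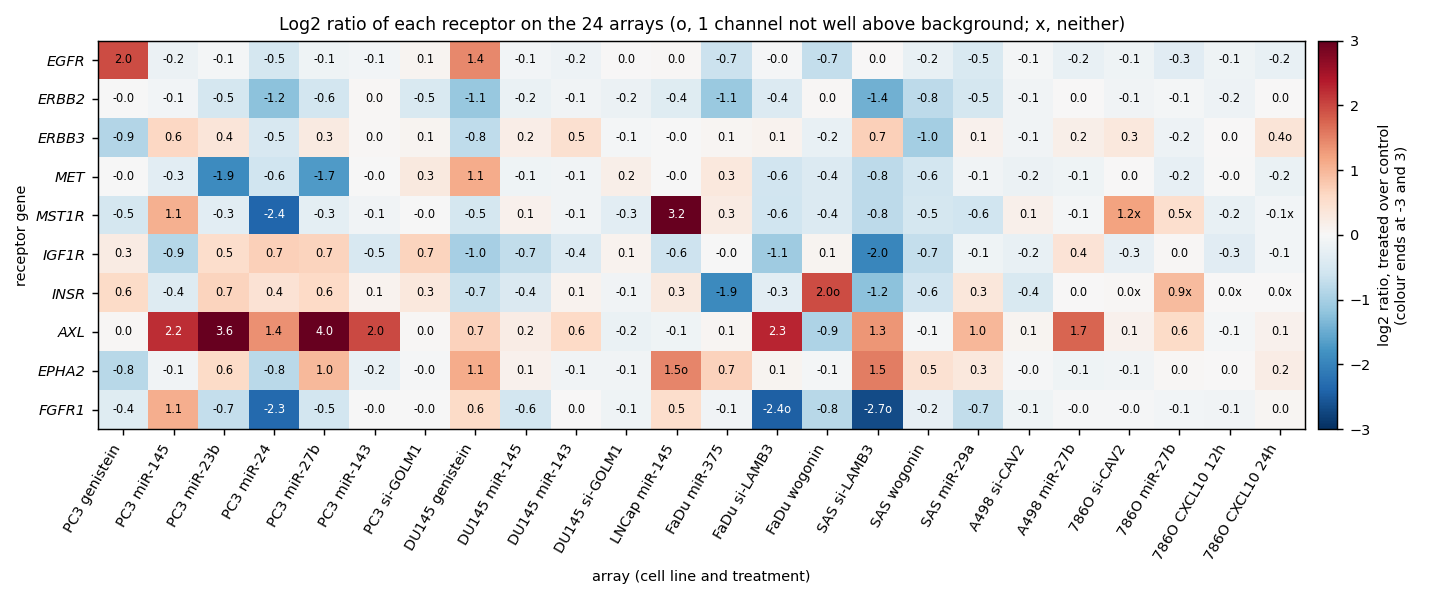
Log2 ratio of treated over control for the 10 receptors (rows) on the 24 arrays (columns, by cell line), with red for higher in treated cells and blue for lower. AXL holds the highest values, 4.03 and 3.60 in PC3 with miR-27b and miR-23b, and FGFR1 the lowest, -2.69 in SAS with si-LAMB3. On the 6 right-hand arrays, of the renal lines, 1 measured value is past 1 in size, AXL at 1.75 in A498.

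The level of a receptor in the control channel is given as log2 signal minus the array's 75th percentile, which sets lines against each other for 1 gene but not 1 gene against another. PC3, DU145, FaDu and SAS had 2 or 3 control samples on the first design, and PC3, DU145 and 786O on the second. The 3 PC3 arrays of miR-23b, miR-24 and miR-27b carried the same control name, N2, and were counted as 1 control sample. Between lines, 8 of 10 receptors differed on the first design (limma F test, adjusted p under 0.05), where 56.8% of all genes did, and 7 of 10 on the second, where 38.5% did. Of single pairs of lines, 21 of 60 receptor comparisons were called on the first design, against 29.2% of those over all genes, and 13 of 30 on the second, against 24.8%. Without the PC3 control of the miR-143 array, 3 receptors and 5 pairs were called on the second design. In such RNA from whole cultures, fewer cells of a kind and less RNA per cell cannot be told apart.

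EGFR, the receptor of EGF and TGF-alpha (probe at hg19 chr7:55274841-55274900), was lower in the prostate lines than in the squamous lines on the first design. The 3 PC3 control samples lay at -1.06, -0.66 and 0.43 and the DU145 samples at -0.60 and 0.54, while FaDu ranged from 1.12 to 1.57 and SAS from 1.64 to 2.07, with no overlap. PC3 minus FaDu was -1.80 (SE 0.407, adjusted p = 0.0067) and PC3 minus SAS was -2.35 (SE 0.407, adjusted p = 0.0016). The LNCap control stood at -1.99, the lowest of the lines, from 1 sample. DU145 minus FaDu was -1.41 (adjusted p = 0.0492) and DU145 minus SAS was -1.95 (adjusted p = 0.0116). With slide as a block both calls were lost, at -1.62 (adjusted p = 0.0766) and -2.28 (adjusted p = 0.0538).

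ERBB2, which has no ligand of its own and pairs with the other family members (chr17:37884829-37884888), had its highest control level in LNCap at 3.24. Its F test was not past the threshold on either design (adjusted p = 0.0895 and 0.355). ERBB3, a partner with little kinase activity that binds neuregulins, was read on a probe for its short transcript (chr12:56479217-56479276). It was highest in LNCap at 0.64 and lowest in 786O and A498, at -4.40 and -4.33 on the first design. Both prostate lines exceeded 786O on the second design, PC3 by 3.71 (SE 0.755, adjusted p = 0.0172) and DU145 by 3.36 (adjusted p = 0.0256), although the 786O controls ran from -4.84 to -2.22. All PC3 and DU145 controls of that design were transfected and 2 of the 3 786O controls were not, so the part of the line and that of the kind of control cannot be told apart. Transfected minus other controls was 2.39 for ERBB3 there (SE 0.261, adjusted p = 0.00427), in the 1 line with both kinds, where 12.9% of all genes were called higher and 12.4% lower. The transfected 786O control, at -2.22, was still below every PC3 and DU145 control.

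MET, the receptor of HGF (chr7:116438290-116438349), was lowest in LNCap. Its control levels on the first design were 4.37 to 5.78 in PC3, 3.12 and 4.54 in DU145, 3.44 to 4.12 in FaDu, 4.95 to 5.51 in SAS, 5.90 in A498 and 5.47 in 786O, while LNCap stood at -3.82. FaDu minus SAS was -1.49 (SE 0.432, adjusted p = 0.035), a call lost with slide as a block (-1.22, adjusted p = 0.0696). On the second design 786O was higher, with differences of -1.33 for PC3 minus 786O and -1.40 for DU145 minus 786O (adjusted p = 0.0084 and 0.0078).

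MST1R, the receptor of macrophage stimulating protein (chr3:49924693-49924752), was higher in the prostate lines than in 786O on the second design. PC3 at 2.19 and 2.37 and DU145 at 2.38 and 2.51 lay above 786O, whose 3 controls were between -5.23 and -4.53, with 1 of them well above background. The difference of PC3 from 786O was 7.21 (SE 0.265, adjusted p = 3.5e-05) and that of DU145 was 7.38 (adjusted p = 4.5e-05), but with 2 of the 3 786O controls not well above background the size of both is not fixed. On the first design PC3 exceeded SAS by 1.53 and DU145 exceeded it by 1.43 (adjusted p = 0.0054 and 0.0183).

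IGF1R (chr15:99507366-99507425) was lower in PC3 than in DU145 on both designs, with differences of -2.19 (SE 0.444, adjusted p = 0.006) and -1.83 (SE 0.453, adjusted p = 0.0425). The second call was lost with no filter on dim probes (adjusted p = 0.0668). Within the slide that held both lines of the first design the difference was -2.33. PC3 was also below FaDu, at -1.62, and SAS, at -2.31, while DU145, FaDu and SAS did not differ past the threshold. INSR (chr19:7112351-7112410), the closest relative of IGF1R, was not well above background in any of the 3 786O controls or treated channels of the second design. By the deposited signal it was at least 15.7-fold below PC3 there (limma adjusted p = 0.000442). It was at least 13.1-fold below DU145 (adjusted p = 0.000615), with the same imbalance in the kind of control as for ERBB3. Its FaDu controls were spread from -6.29 to -1.99, so the gap of 3.12 below PC3 (SE 0.865, adjusted p = 0.019) rests on very unequal arrays, with 0.94 on one slide and 4.33 on the other.

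AXL (chr19:41767395-41767454), which binds GAS6, had controls that differed widely within PC3, FaDu and SAS, and its F test missed the threshold on both designs (adjusted p = 0.113 and 0.087). DU145 was steady, at 4.17 and 4.33 on the first design and 4.72 and 5.24 on the second. PC3 was not, at 2.84 without treatment, 1.90 with the control microRNA of the miR-145 array and 0.54 in the N2 control, and on the second design at 1.27 with the control microRNA and 3.76 with the control siRNA. FaDu stood at 3.10 with DMSO, 1.99 with a control microRNA and 0.50 with a control siRNA, and SAS at 4.01 with DMSO, 1.96 with a control siRNA and 1.79 with a control microRNA. In each of these 3 lines the untransfected control was the highest of the first design. Across 4 lines with both kinds, controls that received an oligonucleotide differed from the others by -1.47 (SE 0.43, adjusted p = 0.683, 10 transfected and 4 other samples, chosen after the values were seen). No gene of the array passed the threshold in that comparison, where 0% were called and 1098 genes had an unadjusted p under 0.05. On the second design the same difference was 0.01 (SE 0.975, adjusted p = 0.995, 6 transfected and 2 other samples, 1 line with both kinds).

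EPHA2, a receptor of membrane-bound ephrin-A ligands, was highest in PC3 on the first design, at 1.15 to 1.67. It exceeded DU145 by 1.65 (adjusted p = 0.0142), FaDu by 1.53 (adjusted p = 0.0078) and SAS by 2.56 (adjusted p = 0.00039). The LNCap control was not well above background. On the second design PC3, DU145 and 786O did not differ past the threshold (F test, adjusted p = 0.903). FGFR1, which binds fibroblast growth factors, had its largest line differences between prostate and squamous cells. PC3 controls lay at -0.29, 0.72 and 1.11 and DU145 controls at 0.14 and 0.74, against -4.24 to -3.28 in FaDu and -3.64 to -2.71 in SAS. PC3 exceeded FaDu by 4.26 (SE 0.413, adjusted p = 3.6e-05) and SAS by 3.62 (adjusted p = 0.00011), and the gap to FaDu was 4.45 and 4.61 within the single slides. PC3 and DU145 differed by 0.07 on the first design (adjusted p = 0.936), while on the second PC3, at -0.67 and -0.34, was below DU145, at 1.83 and 2.34, with a difference of -2.59 (SE 0.415, adjusted p = 0.0106). The designs were scaled apart, and that change between them was not tested. The PC3 controls of the designs also differed in squamous keratins, with a median level of -6.65 for KRT6A and -6.45 for KRT14 on the first design, both not well above background, and 2.01 and 0.18 on the second. Whether this bears on FGFR1 was not tested.

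**Figure D2:**
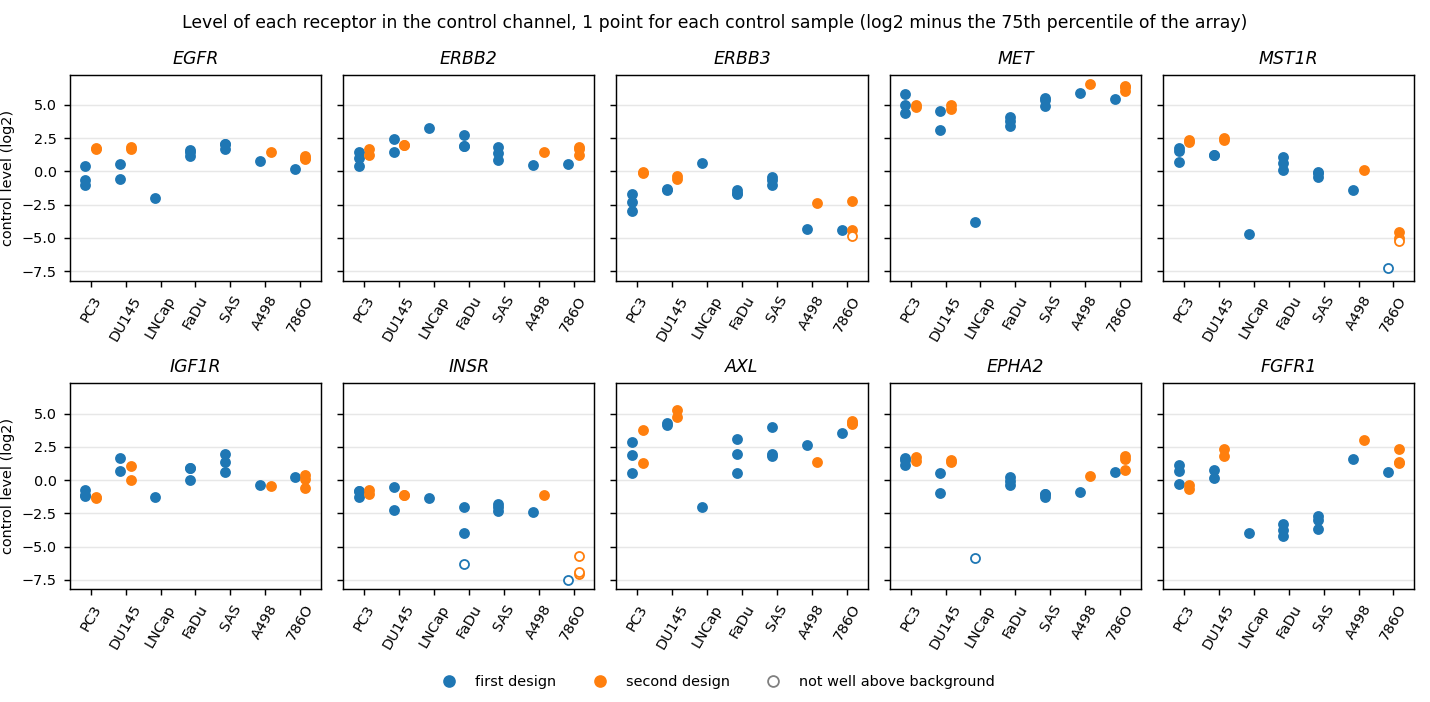
Level of each receptor in the control channel (log2 minus the 75th percentile of the array) by cell line, 1 point for each control sample, blue for the first design and orange for the second. MET is lowest in LNCap (-3.82), FGFR1 is low in LNCap, FaDu and SAS, and MST1R and INSR are low in 786O, while the AXL points of PC3, FaDu and SAS are widely spread.

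Treatments used in 2 or 3 lines were tested as a mean log2 ratio against 0, with the spread shared over the arrays of a design. On the first design these 5 treatments gave 2 lower calls (2.65% of tests over all genes) and 1 higher call (2.79%) in 48 receptor tests. The calls were EGFR with genistein and IGF1R and FGFR1 with si-LAMB3. On the second design none of 28 tests was called, against 0.0228% lower and 0.00508% higher over all genes, and 6 had an unadjusted p under 0.05.

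EGFR rose with genistein, the 1 receptor of 10 called there, where 4.78% of genes were called higher and 3.59% lower. In PC3 its level went from -1.06 to 0.89, a log2 ratio of 1.95, and in DU145 from -0.60 to 0.84, a ratio of 1.44. Both treated levels lay above every first-design control of their line, the highest being 0.43 in PC3 and 0.54 in DU145. They lay below the second-design controls, scaled apart, which averaged 1.72 in PC3 and 1.73 in DU145. In both lines the ratio was taken against the lowest first-design control. The mean was 1.70 (SE 0.169, n = 2 lines, 3.24-fold, limma adjusted p = 0.0047), and either line alone was still called at adjusted p = 0.0376 and 0.0026 with the spread of the other arrays. With only the spread between the pair of genistein arrays the adjusted p was 0.323. The EGFR probes did not move alike: that at chr7:55231446-55231505 gave 1.19 and 0.90, and that for a short transcript at chr7:55224558-55224617 gave 0.04 and -0.07. On the 22 other arrays EGFR stayed between -0.71 and 0.08, with its lowest values in FaDu with wogonin (-0.71) and miR-375 (-0.65).

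The short-transcript probe of EGFR was below -1 on 6 arrays on which the main probe lay between -0.65 and 0.01. Its values were -1.35 in FaDu and -1.09 in SAS with si-LAMB3, -1.26 with miR-29a and -1.05 with wogonin in SAS, -1.13 in FaDu with miR-375 and -1.08 in PC3 with miR-27b. Of these 6 arrays, 5 were of squamous lines and 5 were on the second slide. These values are single arrays with no test.

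ERBB2 was at or below 0 on most arrays, and its 4 values past a factor of 2 were all lower. They were -1.43 in SAS with si-LAMB3 (1.40 to -0.04), -1.24 in PC3 with miR-24 (1.52 to 0.28), -1.14 in DU145 with genistein (2.41 to 1.27) and -1.11 in FaDu with miR-375 (2.71 to 1.60). Each treated level lay below all controls of its line. In the other line of the tested treatments ERBB2 was at -0.41 (FaDu si-LAMB3) and -0.01 (PC3 genistein), and neither mean was called (adjusted p = 0.114 and 0.289).

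ERBB3 had 1 value past a factor of 2, -1.02 in SAS with wogonin, where the probe near the 3′ end of the full-length transcript (chr12:56496160-56496219) gave -1.33. FaDu with wogonin was at -0.23, and the mean of -0.63 was not called (adjusted p = 0.176). With genistein ERBB3 was at -0.89 in PC3 and -0.77 in DU145, a mean of -0.83 (SE 0.242, adjusted p = 0.0675). That mean passed the threshold under 5 other settings, at adjusted p from 0.0294 to 0.0438. On the full-length probe PC3 gave -0.05 and DU145 -0.81.

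MET was lower past a factor of 2 on 2 arrays, both of PC3 with microRNAs of the chromosome 9 cluster. With miR-23b its level went from 5.80 to 3.91, a ratio of -1.89, and with miR-27b from 5.75 to 4.06, a ratio of -1.69. miR-24, from the same cluster and with the same control, gave -0.59 (5.79 to 5.20). The N2 control was the highest of the 3 PC3 controls for MET, with the others at 4.37 and 4.96, and both treated levels were below all of them. In the renal lines miR-27b gave -0.25 in 786O and -0.13 in A498. MET was below 0 on all 8 arrays of the second slide, and after the mean of the other treatments on that slide was subtracted the values were -1.18 for miR-23b and -0.94 for miR-27b. MET was at 1.11 in DU145 with genistein, from a control at 3.12 to 4.23, within the range of the DU145 controls, whose other sample was at 4.54. PC3 with genistein was at -0.01.

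**Figure D3:**
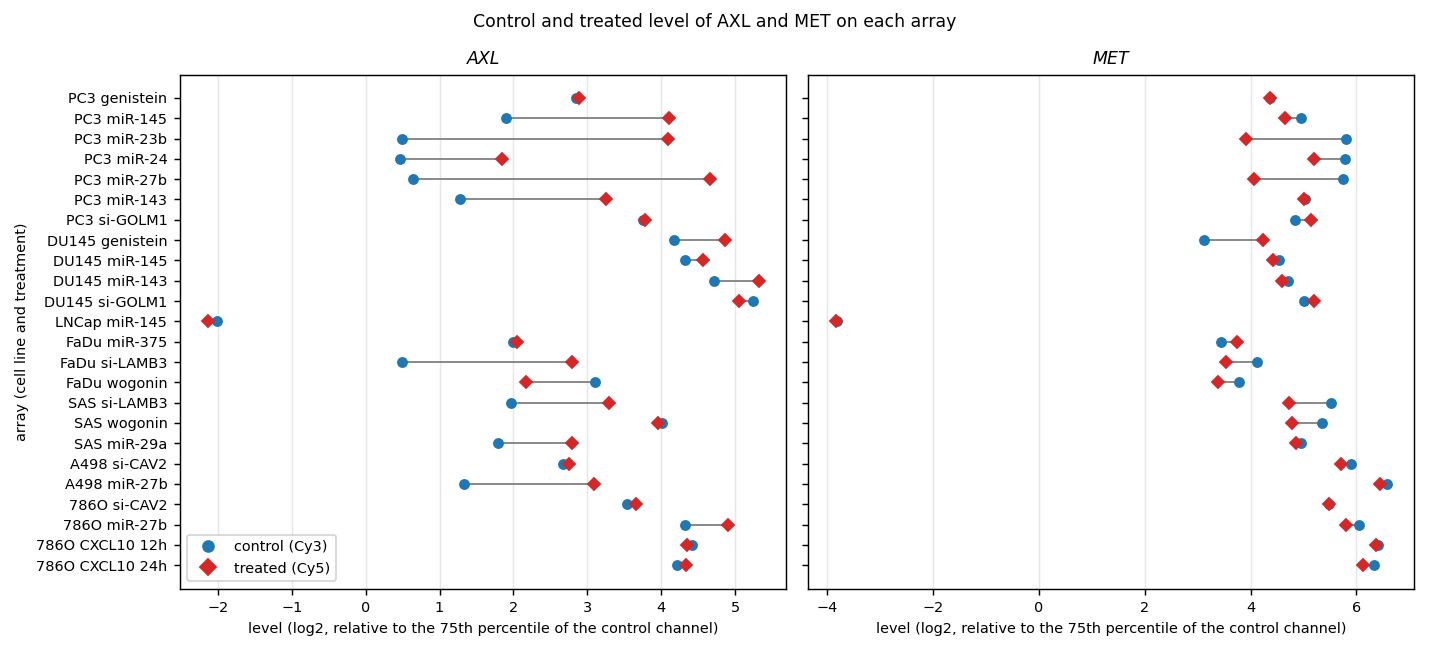
Level of AXL (left) and MET (right) on each array (log2 relative to the 75th percentile of the control channel), with the control channel as a blue circle, the treated channel as a red diamond and a line for the log2 ratio. The PC3 arrays of miR-23b and miR-27b join AXL controls of 0.50 and 0.64 to AXL levels of 4.10 and 4.67, and MET controls of 5.80 and 5.75 to MET levels of 3.91 and 4.06.

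MST1R was at -2.38 in PC3 with miR-24, from 1.53 to -0.85, below all PC3 controls, while miR-23b and miR-27b gave -0.31 and -0.29 from the same control. With miR-145 it was at 1.07 in PC3, 0.13 in DU145 and 3.22 in LNCap. Its mean of 1.47 was not called (SE 0.471, adjusted p = 0.101), and passed the threshold where no background was subtracted (1.09, adjusted p = 0.0283), with normexp (0.94, adjusted p = 0.0259) and with the mean of the other treatments on the design subtracted (1.96, adjusted p = 0.0312). The LNCap control was low, at -4.70, and that ratio was 1.52 with normexp background correction and 1.94 without any. MST1R was below 0 on all 8 arrays of the second slide, in a range from -2.38 to -0.29.

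IGF1R fell with si-LAMB3, with 2 of 10 receptors called there, both lower, where 4.73% of genes were called lower and 3.5% higher. In FaDu its level went from 0.89 to -0.19 (-1.08) and in SAS from 1.95 to -0.01 (-1.96), and both treated levels were below the controls of their line. The mean was -1.52 (SE 0.315, n = 2 lines, adjusted p = 0.0283). Without the FaDu array the adjusted p was 0.0558, and without the SAS array, where LAMB3 itself was at -0.89, it was 0.301. With miR-145 IGF1R was below 0 in all 3 lines, at -0.85 in PC3, -0.74 in DU145 and -0.62 in LNCap, with a mean of -0.74 that was not called (SE 0.255, adjusted p = 0.123). With miR-145 none of 10 receptors was called, against 3.55% lower and 3.83% higher over all genes, and 2 had an unadjusted p under 0.05, IGF1R and MST1R. With miR-143, the neighbour of miR-145, IGF1R was at -0.41 in DU145 and -0.48 in PC3 (adjusted p = 0.307). The 3 PC3 arrays with the N2 control were above 0, at 0.53, 0.71 and 0.67.

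INSR was at -1.90 in FaDu with miR-375 (-1.99 to -3.90) and at -1.24 in SAS with si-LAMB3 (-2.06 to -3.30). The first treated level lay within the FaDu controls, which reached -6.29, and the second was below all SAS controls. In FaDu with wogonin the control was not well above background, and by the deposited signal INSR was at least 2.08-fold higher in treated cells. INSR also gave 0.67, 0.44 and 0.60 on the 3 PC3 arrays with the N2 control.

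AXL was above 1 on 9 arrays, more than any other member, and below -1 on none. The values were 4.03 with miR-27b, 3.60 with miR-23b, 2.21 with miR-145, 1.98 with miR-143 and 1.37 with miR-24 in PC3, 2.30 in FaDu and 1.32 in SAS with si-LAMB3, 1.75 in A498 with miR-27b and 1.01 in SAS with miR-29a. All 9 were transfections, as were most arrays of the series. The same was not seen in DU145, whose controls were high, at 0.23 with miR-145, 0.60 with miR-143 and -0.19 with si-GOLM1. AXL also stayed below 1 with si-GOLM1 in PC3, miR-375 in FaDu, miR-145 in LNCap, si-CAV2 in both renal lines and miR-27b in 786O. Of the 8 arrays with AXL above 1 whose line had 2 or more control samples on the design, treated levels passed every such control on 3. They were PC3 with miR-23b (4.10), miR-27b (4.67) and miR-145 (4.11), against a highest first-design PC3 control of 2.84. On the other 5 the treated level lay inside the range of the line's controls. For si-LAMB3 the mean of 1.81 was not called (SE 0.507, adjusted p = 0.0666), nor were those for miR-143 (1.29, adjusted p = 0.259) or for miR-27b in the renal lines (1.16, adjusted p = 0.332).

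The same reading was made for all members, on lines with 2 or more control samples on the same design. Controls of the other design, scaled apart, were not used. Of 15 values lower past a factor of 2, 14 lay below every control of the line, against 73.8% over all genes. Of 16 higher values 7 lay above every control, against 78.4%, and 5 of the remaining 9 were those of AXL. The part of the control oligonucleotides in the AXL ratios was not tested.

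EPHA2 was higher past a factor of 2 in SAS with si-LAMB3 (-1.08 to 0.45, a ratio of 1.53), above all SAS controls, and not in FaDu (0.07). In DU145 with genistein it was at 1.12, from a control at -0.94 to 0.17, below the other DU145 control at 0.54. PC3 with genistein went the other way, at -0.83. In LNCap with miR-145 the control was not well above background, and by the deposited signal EPHA2 was at least 2.76-fold higher in treated cells. With miR-27b in PC3 it was at 0.97 and with miR-24 at -0.81.

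FGFR1 fell with si-LAMB3 in both squamous lines, where its control level was already low. The level went from -3.28 to -5.72 in FaDu and from -2.99 to -5.68 in SAS, with treated cells not well above background. The measured ratios were -2.44 in FaDu and -2.69 in SAS (mean -2.57, SE 0.361, limma adjusted p = 0.0082). With treated signals this dim, the size of the fall is not fixed. With no background correction the mean was -0.84 and not called (adjusted p = 0.16). Without the SAS array the adjusted p was 0.097, and with normexp background correction the mean was -0.67 and not called (adjusted p = 0.243). In PC3 with miR-24, where the control level was higher, FGFR1 was at -2.34, from 1.10 to -1.25, below all PC3 controls, and another of its probes gave -0.74. With miR-145 it was at 1.09 in PC3 (0.72 to 1.81), above all PC3 controls, at -0.55 in DU145 and at 0.52 in LNCap. FGFR1 was below 0 on all 8 arrays of the second slide.

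**Figure D4:**
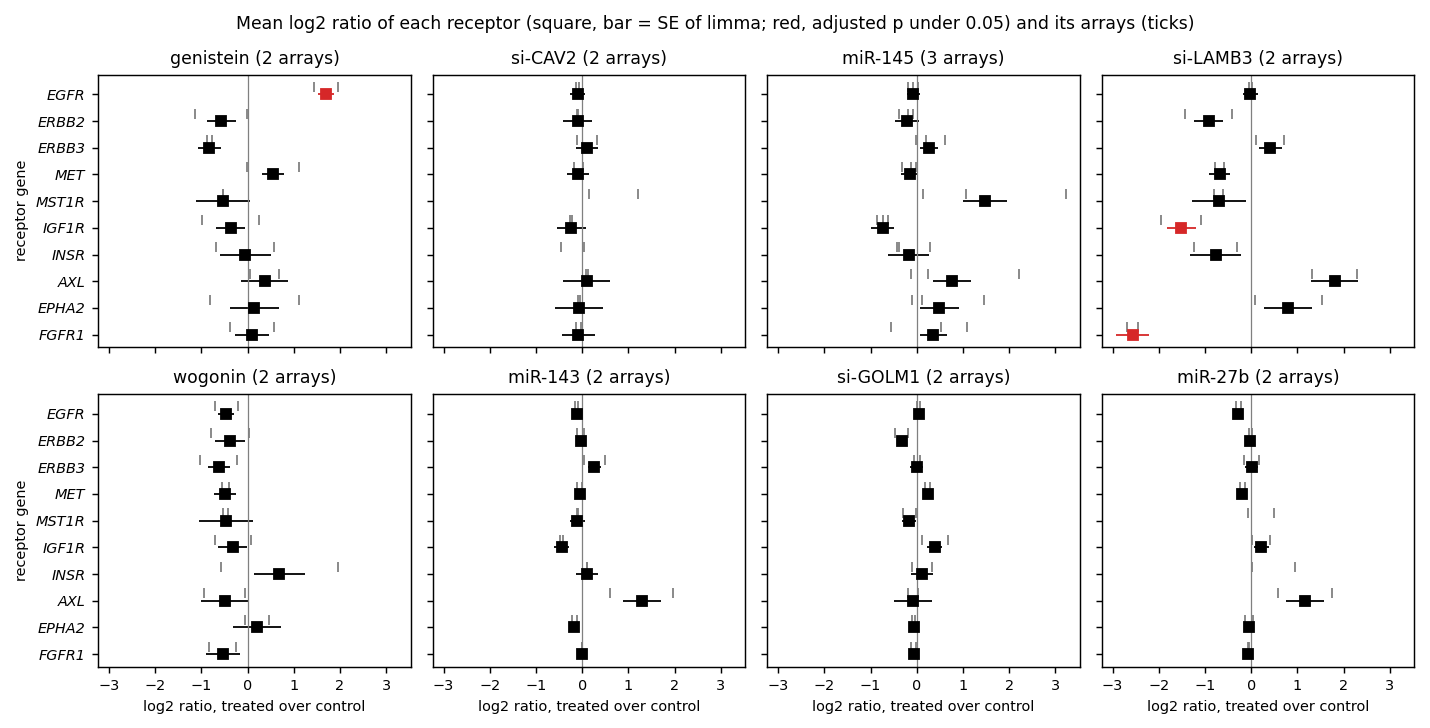
Mean log2 ratio of treated over control (square, with the SE of limma) of each receptor for the 8 treatments used in 2 or 3 lines, with single arrays as grey ticks and calls in red. EGFR with genistein (1.70) and IGF1R and FGFR1 with si-LAMB3 (-1.52 and -2.57) are called, and AXL with si-LAMB3 (1.81) is not. Squares are left out where a receptor was not tested.

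The remaining treatments gave no receptor call. With si-CAV2 in the renal lines none of 8 tested receptors was called, with 0 at an unadjusted p under 0.05, against 0.123% lower and 0% higher over all genes, and measured values ran from -0.45 to 0.31. With wogonin none of 10 was called, against 1.25% lower and 1.83% higher, and 2 had an unadjusted p under 0.05, EGFR (mean -0.47) and ERBB3 (-0.63). With si-GOLM1 none of 10 was called, against 0.0617% lower and 0.0154% higher, and 2 had an unadjusted p under 0.05, ERBB2 (-0.32) and MET (0.24). With miR-143 none of 10 was called, against 0% of all genes in both directions, and 2 had an unadjusted p under 0.05, IGF1R and AXL. With miR-27b in the renal lines none of 8 was called, against 0.00756% lower and 0% higher, and 2 had an unadjusted p under 0.05, EGFR (-0.28) and AXL. After CXCL10 in 786O, measured ratios lay between -0.35 and 0.00 at 12 h and between -0.21 and 0.38 at 24 h, with 1 array each and no test.

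The rest of the pathway was read from 4 lists. Over the 5 treatments of the first design, 4 of 88 tests of other receptor tyrosine kinases were lower and 3 higher, where 2.65% and 2.79% of tests over all genes were. Among them were EPHB3, an ephrin-B receptor, at -2.11 with genistein, ROR1, a WNT5A receptor, at 1.80 with si-LAMB3 and MERTK, a relative of AXL, at 1.29 with genistein (adjusted p = 0.0452, 0.0241 and 0.0291). Of 91 tests of ligands, 1 was lower and 4 higher. MST1, the ligand of MST1R, was at -1.55 with genistein (SE 0.269, adjusted p = 0.0153), BTC, a ligand of EGFR, was at 1.53 with miR-145 (adjusted p = 0.0039) and FGF7 at 1.35 with genistein (adjusted p = 0.0182). Of 130 tests of adaptors 3 were lower and 2 higher. GRB7, an adaptor of ERBB2, was at -1.88 with wogonin (limma adjusted p = 0.0198). IRS2, the docking protein of INSR and IGF1R, was at 1.14 with genistein (adjusted p = 0.039). By the deposited signal FRS3, the docking protein of FGF receptors, was at least 2.64-fold higher with genistein (adjusted p = 0.0244). Of 123 tests of negative regulators 3 were lower and 2 higher, with the endophilin SH3GL2 at 2.60 with genistein, the ubiquitin ligase CBLB at -1.20 and RNF41, a ligase that acts on ERBB3, at 1.15 with si-LAMB3 (adjusted p = 0.0269, 0.0452 and 0.014). The control was well above background on 1 of 2 arrays for SH3GL2 and for ROR1, and on 2 of 3 for BTC. The sizes of these 3 ratios are thus not fixed. The second design gave no call in any of the 4 lists.

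Between lines on the first design, 21 of 27 tested other receptors, 14 of 24 ligands, 19 of 29 adaptors and 19 of 26 negative regulators differed, against 56.8% of all genes. Line medians with a wide range were those of the EGFR ligands AREG, at 9.64 between FaDu and LNCap, and EREG, at 7.79 between 786O and A498. Among other receptors FGFR3 ranged over 8.11, high in FaDu and not well above background in PC3, while FGFR1 was higher in PC3 than in FaDu. Among adaptors GRB14, which binds the insulin receptor, ranged over 9.56, high in 786O and low in PC3, and among negative regulators SOCS3 ranged over 7.57, CBLC over 7.36 and ZFYVE28 over 6.77. The lowest line of each of these 7 genes was not well above background, so the ranges are not exact and give no order.

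The genes whose log2 ratios were most like those of EGFR and MET were sought over the 16 arrays of the first design among 10082 genes above background on all of them. For EGFR they were ZNF777 (Pearson r = 0.94, Spearman rho = 0.79), DTWD2 (r = 0.92, rho = 0.79) and FAM190B (r = 0.89, rho = 0.44). Without both genistein arrays r was 0.69, 0.58 and 0.29, so the likeness of the last rested mainly on these. For MET they were TMEM136 (r = 0.84, rho = 0.61), STK39 (r = 0.84, rho = 0.66) and ZNF462 (r = 0.83, rho = 0.51), and without the PC3 miR-23b and miR-27b arrays r was 0.68, 0.68 and 0.49. Among the members, MET and AXL gave r = -0.71 (rho = -0.56) over the 16 arrays, and without the PC3 miR-23b and miR-27b arrays r was -0.26, so that value rested on these. On the 8 arrays of the second design r was -0.32 (rho = -0.36), and without the PC3 and DU145 si-GOLM1 arrays it was 0.30, with the sign changed. MST1R and FGFR1 gave r = 0.64 over 15 arrays of the first design, and 0.65 without LNCap miR-145 and PC3 miR-24. On 6 arrays of the second design their r was 0.89, and -0.09 without DU145 si-GOLM1 and 786O CXCL10 12h. EGFR and MET gave 0.35 on the first design and 0.97 on the second. The arrays share lines, slides and in part a control, and the correlations are descriptions without a test.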

How the data were processed

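Human cancer cell lines were compared on 24 Agilent 2-colour expression arrays. The authors deposited scanner files of Feature Extraction 10.7.3.1 (signals on hg19-annotated probes, background-subtracted and dye-normalized), and per the labels Cy5 held treated and Cy3 control RNA. The log10 ratio of the deposited files was turned to log2, and the deposited series table held the same values. The intensity of the Cy3 processed signal that the authors deposited was taken as log2 minus the array's 75th percentile to give a control level, and a treated level is that plus the log2 ratio. Flag columns of the software (well above background, saturated) were used as other values. Spots of a probe were averaged, and the brightest probe, that with the highest mean Cy3 level over the arrays of a design, stood for a gene. By the median Cy3 level of the first design, the ERBB3 probe near the 3′ end was higher, at -1.35 against -1.66 for the probe used. A probe was well above background in a channel where at least 0.5 of the spots it used were, and "measured" means at least 1 channel above background. It entered the tests between lines where this held in every control channel of at least 1 line. A gene could thus enter through the line where it was high. It entered a treatment test where at least 1 channel was above background on every array of that treatment.

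limma 3.58.1 in R 4.3.3 was fitted over all probes of a design with Benjamini-Hochberg adjustment at 0.05: line means of the control samples, and treatment means against 0 with the spread shared over the design (6 and 3 residual degrees of freedom on the 2 designs). Nothing in the labels says that arrays came from separate cultures, so p-values cover only the spread between arrays. The software's error of a member ratio had a median of 0.21 and a range of 0.20 to 2.06. The N2 arrays were counted as 1 control because their Cy3 channels correlated at 0.996 to 0.997, against 0.962 to 0.990 for other pairs of a line. For genistein the study's methods name a vehicle control where the labels name none. Other doses were not given in the sources used here. The median ratio of tested probes on an array lay between -0.10 and 0.09. Where a group was not above background, "at least" folds use the lowest signal well above background on each array, or the probe's own if higher. They hold only for the deposited background-subtracted signal. For FGFR1 with si-LAMB3 such bounds were 5.43-fold in FaDu and 6.46-fold in SAS. Its mean log2 ratio was only -0.67 with normexp and -0.84 with no background correction. The members and lists were chosen with earlier results of these data known. The genes named beside the members were, for each list, the 3 called with the largest mean ratio and the 3 with the widest range between lines, and the 3 most like EGFR and MET. The scripts were tested on simulated data. Alternatives were normexp with offset 50, no background correction, quantile scaling, slide as a block, other filters, other probes, other centring and leaving out each array.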

Additional observations from a re-analysis of the deposited data

Results flagged for a closer look

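In 4 cases a treatment gave log2 ratios past 0.5 in size, and past the software's error, in opposite directions in its lines. The difference between the lines was not tested, since each line had 1 array. INSR was at 0.58 in PC3 and -0.67 in DU145 with genistein, and EPHA2 at -0.83 in PC3 and 1.12 in DU145 with the same agent. FGFR1 with miR-145 was at 1.09 in PC3 and 0.52 in LNCap but at -0.55 in DU145. INSR with wogonin was at -0.59 in SAS and 1.96 in FaDu, where the FaDu control was not well above background.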

How the results depend on the processing

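With 1 array for each line and treatment, the precision is set by the number of arrays. Dim probes have at most bounds, which hold for the deposited signal only. Treated and control RNA were paired within each array, and the treatment tests used that ratio. No further pairing between arrays was possible because each condition had 1 array and the replicate numbers are shared by unrelated arrays.

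Treatment calls of the receptors on the first design (2 lower, 1 higher) depended on the settings more than the line differences did. Lower calls became 4 with the mean of the other treatments on the slide subtracted and 0 with the spread of the treatment's own arrays. Higher calls became 2 with normexp, with no background correction and with both channels above background on all arrays, 4 with the mean of the other treatments on the design subtracted and 0 with own spread. On the second design normexp gave 1 higher call, AXL with miR-143 (adjusted p = 0.0497). Values past a factor of 2, 15 lower and 19 higher, became 9 and 12 with both channels above background on all arrays and 49 and 36 at a limit of 0.5, and 9 were lower with normexp. AXL changed sign after centring, to -0.58 in SAS with si-LAMB3 and -0.62 in PC3 with miR-24 on the slide mean, and to -0.28 (design mean) and -1.06 (slide mean) in SAS with miR-29a. The means subtracted from these AXL values included PC3 with miR-23b and miR-27b, where AXL was at 3.60 and 4.03. The changed signs are thus relative to those arrays. The cause of the other changes was not tested.

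Leaving out each array or control sample gave 6 to 8 receptors and 17 to 23 pairs called between lines on the first design, and 3 to 7 receptors and 5 to 14 pairs on the second, where the lowest counts came without the PC3 control of the miR-143 array. Treatment calls ranged from 0 to 2 lower and 1 to 2 higher on the first design, with 0 lower where the SAS si-LAMB3 array was left out, and were 0 to 0 on the second. With slide as a block 7 receptors and 17 pairs were called on the first design, and with the N2 arrays counted apart 9 and 30. Apart from the runs that left out an array or control, 593 of the other single values kept their side of the threshold or moved less than the spread, 70 moved, 13 newly passed and 20 no longer passed it. In the runs that left one out, 345 kept their side, 2 newly passed and 73 no longer passed. The comparison of control kinds, the full-length ERBB3 probe and the runs without the PC3 miR-24, FaDu miR-375 and N2 arrays were added after the data were seen.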
